A study of Equus asinus with 6 samples.

Results

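The genes described here encode the protein factors that start and elongate translation (EIF and EEF genes, with the kinases, binding proteins and methyltransferases that carry their names) and the aminoacyl-tRNA synthetases of the cytosol and of the mitochondrion. They were chosen by symbol: every row of the deposited count table whose gene name began with EIF or EEF and a digit, or consisted of 1 letter followed by ARS or ARS2, apart from a pair of names that the rule set aside. The rule found 90 genes of 20873 in the table, 56 translation factors and their regulators and 34 synthetases, and each symbol was listed once. The samples were longissimus dorsi, the long back muscle, of the Guangling donkey breed at 24 months of age. High intramuscular fat (high IMF) muscle gave 3 libraries and low intramuscular fat (low IMF) muscle gave 3. Age, breed and muscle were the same in both groups, and neither the measured fat content nor the sex of an animal nor a library batch is stated in the labels. The series' design text and the sample protocols name different sequencers, without saying that any library was run differently from the others, so a sequencer difference between libraries was not tested. Since the labels do not state that the libraries came from separate animals, p-values measure only the spread between these libraries.

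Translation starts when the initiation factor eIF2 carries the initiator tRNA to the small ribosomal subunit, eIF3 holds the complex together, and the eIF4 factors bring the capped mRNA to it. Elongation factor eEF1A then delivers each charged tRNA and eEF2 moves the ribosome along, while each synthetase charges the tRNAs of its own amino acid. Skeletal muscle is a large user of this machinery, and the main switches known in muscle are phosphorylation of eIF2 by its kinases and the sequestration of the cap-binding protein eIF4E by the 4E-BP proteins, which the kinase mTORC1 relieves.

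The high IMF libraries held 39052998 to 47494157 assigned reads and the low IMF libraries 44313770 to 46360965. The 90 genes took 1.36% to 1.59% of the reads in the high and 1.48% to 1.51% in the low IMF libraries. All 10 skeletal muscle fibre markers examined, among them ACTA1, CKM and TTN, were listed, and their summed level was 105775 to 174472 CPM (counts per 1000000 reads of the normalised library size) in the high and 125726 to 174593 CPM in the low IMF libraries. Low IMF replicates 2 and 3 differed far less from each other than other libraries of a group (chi-square per degree of freedom 7.70 over genes with at least 20 reads, against 193 to 560 for the other pairs), yet by more than sampling noise, which gives a value near 1, so they were kept as separate libraries.

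The members covered a wide range of levels. On the scale of FPKM (fragments per 1000 bases of gene length and 1000000 reads), which allows genes to be compared, the mean over the 6 libraries ran from 0.313 for EEF2KMT, a methyltransferase of eEF2, to 1649 for EEF1A2, the eEF1A form of muscle and nerve, with a median of 14.2. Above 100 FPKM lay 15 members, between 10 and 100 FPKM 41 members and under 10 FPKM 34 members. The 3 highest members held 43.9% of the summed FPKM of all 90. These were EEF1A2, EEF2 (751 FPKM) and EEF1G (642 FPKM), a subunit of the exchange factor that recharges eEF1A with GTP. They were followed by EEF1A1 (380.0 FPKM), the eEF1A form of most other tissues, and EIF5A (378 FPKM), the hypusinated factor that helps ribosomes past difficult peptide bonds.

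**Figure D1:**
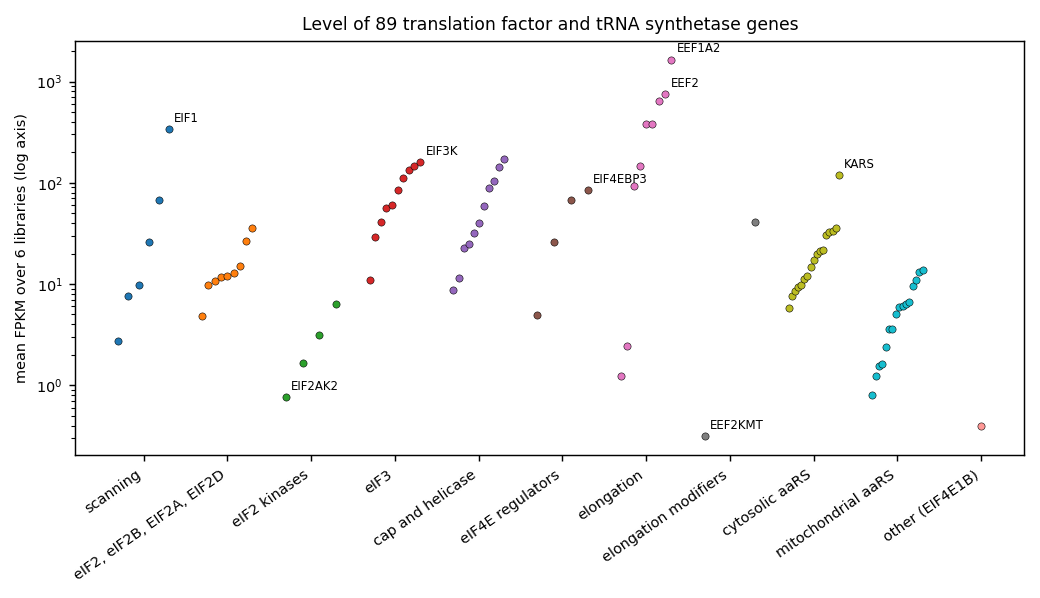
Mean FPKM over the 6 libraries (log axis) of 89 of the 90 genes, ordered by level within its role; aaRS stands for aminoacyl-tRNA synthetase. Elongation factors reached 1649 FPKM for EEF1A2, cytosolic synthetases lay between 5.83 and 119.7 FPKM, and mitochondrial synthetases between 0.798 and 13.7 FPKM.

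Set side by side for their translation transcripts, high and low IMF muscle differed little in most of the 90 genes. The eIF4E-binding protein gene EIF4EBP3 had 44.1 ± 18.9 CPM in high and 81.5 ± 16.6 CPM in low IMF muscle (SD, n = 3 each). EIF3L, a subunit of the initiation scaffold eIF3, had 131 ± 6.78 CPM in high and 108 ± 7.22 CPM in low IMF muscle (SD, n = 3 each). Neither passed the test after adjustment. All 90 members passed the filter on low counts and were tested together with the rest of the table by edgeR's quasi-likelihood test. At an adjusted p under 0.05 edgeR called 0 of the 90 members, where it called 0% of all 15933 genes tested; limma-voom also called 0 of the 90, with 0% of all genes, and the DESeq2 Wald test 0 of the 90, where it called 1.16% of the genes to which it gave an adjusted p.

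At an unadjusted p under 0.05 edgeR had 2 of the 90 members, which is 1 higher and 1 lower, where 7.27% of all genes tested reached that level (4.53% higher and 2.74% lower). The 3 high IMF libraries lay wholly above the 3 low IMF libraries for 3 members and wholly below them for 7; over all genes tested 6.86% were separate in the higher direction, 6.1% in the lower and 13% in either. Fewer members reached that unadjusted p than the share of the whole table. The count of separate members over both directions was near its share, and the count in the lower direction was slightly above its own. These counts are not read as a result about the members. An absolute log2 fold of at least 0.5 was seen for 5 members, or 5.56%, where 22.7% of all genes reached it, and 69 members, or 76.7%, stayed under 0.25, where 54.7% of all genes did. The members' median level was 44.7 CPM against 11.7 CPM for all genes, and the part of level in this contrast of fold sizes was not tested.

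A log2 fold (high over low IMF) below 0 was found for 58 of the 90 members, or 64.4%, where 48.8% of all genes tested had one. The members' median log2 fold was -0.08 and that of all genes 0.01. With library size as the only scaling, the median of all genes became 0.15 and that of the members 0.06, and 38.9% of the members and 30.9% of all genes were below 0. The sign of the members' median therefore depended on the scaling, while the members lay below the median of all genes under both. The gap was narrow without high IMF replicate 1, with medians of -0.03 for the members and -0.02 for all genes. In that refit 58.9% of the members and 52.2% of all genes were below 0. With any other library left out the members' median ran from -0.12 to -0.07. Single libraries also moved the counts at an unadjusted p under 0.05. Without high IMF replicate 3 there were 3 higher and 8 lower members, and without high IMF replicate 1 there were 3 lower. Without low IMF replicate 1 there were 2 higher and 2 lower, and without high IMF replicate 2 or low IMF replicate 2 there were 0 lower. The share of all genes at that level was not taken for these refits, so their counts are not read as a result about the members.

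**Figure D2:**
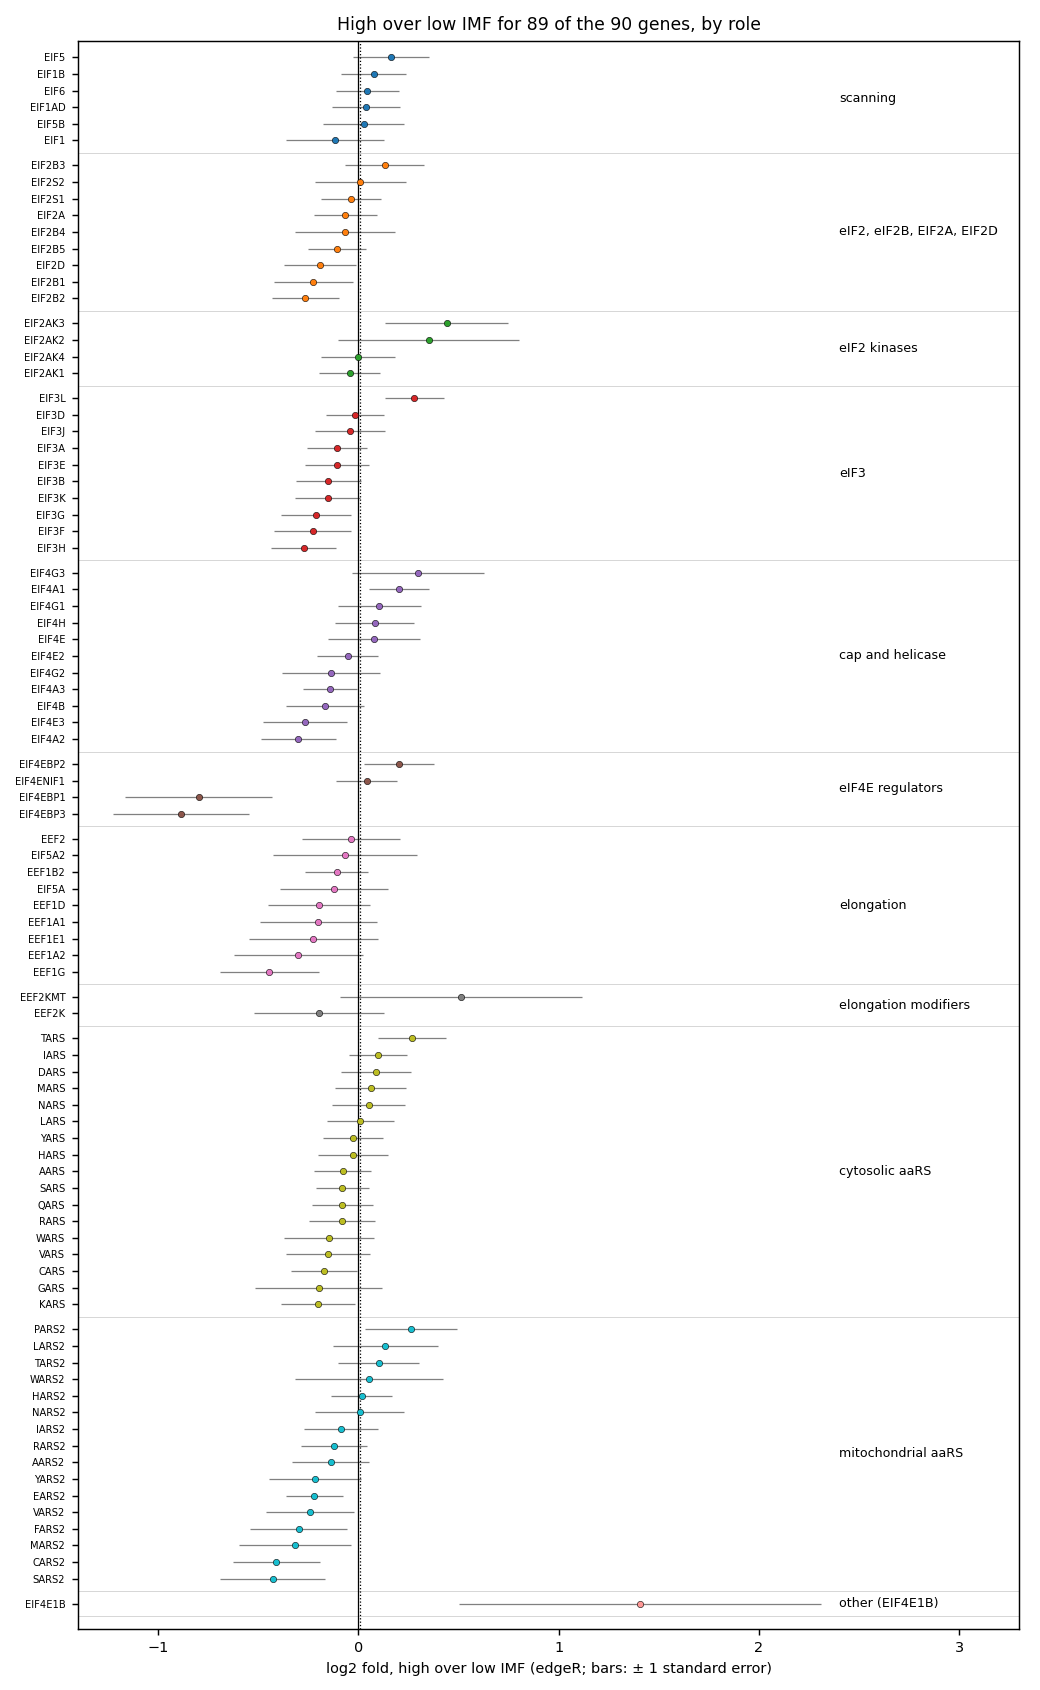
Log2 fold of high over low IMF from edgeR for 89 of the 90 genes (points) with 1 standard error to each side (bars), by role; the solid line marks 0 and the dotted line the median of all genes tested (0.01). EIF4EBP3 (-0.89) and EIF4EBP1 (-0.80) lie lowest, and EIF4E1B (1.40) has the widest bar.

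The 6 genes grouped here as start-site scanning and joining factors had the smallest folds of the role groups, with a median absolute log2 fold of 0.061. EIF1, EIF1B, EIF1AD, EIF5, EIF5B and EIF6 had a median log2 fold of 0.04, with the ends at -0.12 for EIF1, which enforces start codon choice, and 0.16 for EIF5, which triggers GTP hydrolysis by eIF2. EIF1 had 529.7, 589 and 857 CPM in the high IMF libraries and 647, 746 and 749 CPM in the low IMF libraries. The spread of EIF1 within high IMF muscle was thus wider than the distance between the groups. EIF6 was placed in this group although it keeps the ribosomal subunits apart until they are used. It had 30.2 ± 3.29 CPM in high and 29.3 ± 2.69 CPM in low IMF muscle (SD, n = 3 each). None of the 6 had separate groups or an unadjusted p under 0.05.

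Genes of eIF2, of its exchange factor eIF2B, and of EIF2A and EIF2D, separate factors that can deliver initiator tRNA, lay slightly lower or level. Of the 9 together, 7 had a log2 fold below 0 (3 with library size only), the median was -0.07 and 0 had separate groups. EIF2S1, the subunit that the stress kinases phosphorylate, had 44.2 ± 5.15 CPM in high and 45.3 ± 2.60 CPM in low IMF muscle, and EIF2S2 had 96.1 ± 25.4 CPM and 95.6 ± 8.10 CPM (SD, n = 3 each). Across the 5 eIF2B subunits the mean level ran from 4.79 FPKM for EIF2B4 to 12.9 FPKM for EIF2B5, the catalytic subunit. EIF2B2, a regulatory subunit of eIF2B, came lowest in fold, with 16.3, 16.6 and 21.3 CPM in the high and 20.7, 22.9 and 21.5 CPM in the low IMF libraries. High IMF replicate 3 reached into the low IMF range, and edgeR gave a log2 fold of -0.26 ± 0.17 (standard error) with an adjusted p of 0.841. EIF2B1 had a log2 fold of -0.22 with an adjusted p of 0.898, while EIF2B3, with 23.3 ± 5.17 CPM in high and 21.3 ± 2.12 CPM in low IMF muscle (SD, n = 3 each), was the highest of the group in fold.

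Of the eIF2 kinases, which halt general translation under different stresses, EIF2AK1 and EIF2AK4 differed little between the groups. EIF2AK2 and EIF2AK3 were higher on average in high IMF muscle but varied widely between its libraries. EIF2AK3 (PERK, the kinase of endoplasmic reticulum stress) had 10.1, 11.8 and 5.33 CPM in the high IMF libraries and 6.69, 7.13 and 6.25 CPM in the low IMF libraries. EIF2AK2 (PKR, activated by double-stranded RNA) had 5.26, 4.65 and 1.54 CPM in the high and 2.69, 2.93 and 3.38 CPM in the low IMF libraries. For both genes high IMF replicates 1 and 2 were the highest of the 6 libraries and high IMF replicate 3 the lowest. The log2 folds were 0.44 ± 0.31 and 0.35 ± 0.45 (standard error), with adjusted p-values of 0.865 and 0.936 in edgeR. EIF2AK1 (HRI, the haem-regulated kinase) had 18 ± 1.65 CPM in high and 18.6 ± 1.08 CPM in low IMF muscle, and EIF2AK4 (GCN2, which senses uncharged tRNA) had 16.4 ± 1.61 CPM and 16.4 ± 2.78 CPM (SD, n = 3 each). High IMF replicates 1 and 2 also had the most fibroblast marker transcript, 1592 and 1352 CPM summed over 10 genes, while high IMF replicate 3 had the least (286 CPM) and the low IMF libraries 360 to 840 CPM. The part of fibroblast RNA in the order of EIF2AK2 and EIF2AK3 was not tested.

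The eIF3 complex, the scaffold on which the initiation complex is built, had 10 subunits listed, and 9 of them had a log2 fold below 0 with a median of -0.13. With library size only the count below 0 was 5 of 10. Levels ran from 11 FPKM for EIF3J, the loosely bound subunit, to 160.3 FPKM for EIF3K. EIF3L stood on the other side of the complex, with 124, 137 and 133 CPM in the high and 116, 102 and 107 CPM in the low IMF libraries. The groups did not overlap, and the log2 fold was 0.28 ± 0.15 (standard error) with an adjusted p of 0.767 in edgeR. EIF3H had 116, 119 and 145 CPM in the high and 161, 153 and 146 CPM in the low IMF libraries. The nearest libraries of the groups, high IMF replicate 3 and low IMF replicate 3, differed by about 1 CPM, and edgeR gave a log2 fold of -0.27 ± 0.16 (adjusted p = 0.825). EIF3A, the largest subunit, was also separate but by a smaller margin (149 ± 8.38 CPM in high and 161 ± 5.52 CPM in low IMF muscle; SD, n = 3 each). The other 7 subunits overlapped between the groups, with EIF3F at the lower end (log2 fold -0.23) and EIF3D at the upper end (122 ± 3.18 CPM in high and 124 ± 8.26 CPM in low IMF muscle; SD, n = 3 each).

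Among the cap-binding and helicase factors, the paralogs of the helicase eIF4A lay on opposite sides. EIF4A1 had 76.3, 85.5 and 94.0 CPM in the high and 76.0, 71.6 and 74.8 CPM in the low IMF libraries. EIF4A2 had 265, 256 and 278 CPM in the high and 272, 356 and 355 CPM in the low IMF libraries. The EIF4A1 groups were separate only by the small gap between high IMF replicate 1 and low IMF replicate 1, and those of EIF4A2 overlapped through high IMF replicate 3. The log2 folds were 0.20 ± 0.15 and -0.30 ± 0.19 (standard error), with adjusted p-values of 0.867 and 0.836 in edgeR. The scaffold genes of the eIF4G family overlapped. EIF4G1 had 339 ± 35.8 CPM in high and 316 ± 54.8 CPM in low IMF muscle (SD, n = 3 each). EIF4G2 had 697 ± 86.1 CPM in high and 766 ± 163 CPM in low IMF muscle (SD, n = 3 each). EIF4G3 had a log2 fold of 0.30 ± 0.33 (standard error), with 118, 192 and 167 CPM in the high and 74.4, 156 and 157 CPM in the low IMF libraries, so that its fold rested on low IMF replicate 1, without which it was 0.0084. EIF4B and EIF4H, which assist the helicase, and EIF4E2 and EIF4E3, relatives of the cap-binding protein, overlapped too, with log2 folds of -0.17 for EIF4B and -0.27 for EIF4E3. EIF4E, the cap-binding protein itself, had 45.9 ± 12.3 CPM in high and 43.4 ± 5.46 CPM in low IMF muscle (SD, n = 3 each). EIF4A3, a helicase of the exon junction complex, was separate in the lower direction with 46.5 ± 2.68 CPM in high and 51.4 ± 2.18 CPM in low IMF muscle (SD, n = 3 each).

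The genes of the 4E-BP proteins, which bind eIF4E and keep it from eIF4G, showed the widest contrast among the factors above 1 CPM. EIF4EBP3 had 23.8, 47.6 and 61.1 CPM in the high IMF libraries and 101, 73.2 and 70.8 CPM in the low IMF libraries. All 3 high IMF libraries were below all 3 low IMF libraries, and edgeR gave a level 1.85-fold higher in low IMF muscle (log2 fold -0.89 ± 0.34, standard error; adjusted p = 0.639). EIF4EBP1 had 36.9, 66.0 and 100.3 CPM in the high and 152, 103 and 99.2 CPM in the low IMF libraries. High IMF replicate 3 lay just above low IMF replicate 3, so the EIF4EBP1 groups overlapped, and edgeR gave a log2 fold of -0.80 ± 0.37 (adjusted p = 0.719). EIF4EBP2 lay on the other side, with 175, 167 and 194 CPM in the high and 132, 161 and 172 CPM in the low IMF libraries, a log2 fold of 0.20 ± 0.17 and an adjusted p of 0.892. EIF4ENIF1, which carries eIF4E into the nucleus, overlapped as well, with an adjusted p of 0.976.

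The folds of EIF4EBP3 and EIF4EBP1 were carried most by high IMF replicate 1 and low IMF replicate 1, the lowest and the highest library of each gene. Without high IMF replicate 1 the log2 folds were -0.60 and -0.52, without low IMF replicate 1 they were -0.72 and -0.59, and without high IMF replicate 3 they were -1.20 and -1.20. The least muscle fibre marker transcript summed over 10 genes (105775 CPM) was also in high IMF replicate 1. Of that list, however, ACTA1, MB, TTN and DES were not lowest there. TNNT3, TNNI2 and MYLPF were far lower there, at 1667, 1579 and 1496 CPM. The other libraries had 5649 to 11055, 6409 to 10712 and 6647 to 9300 CPM of these genes. Whether the split of the list follows fibre type was not tested. High IMF replicate 1 also had the most myeloid marker transcript (167 CPM summed over 9 genes, where the other libraries had 49.2 to 97.8 CPM). The part of these marker levels in the EIF4EBP1 and EIF4EBP3 folds was not tested. In bulk muscle, fewer cells of a type and less RNA per cell cannot be told apart. In a RefSeq gene table of another donkey assembly EIF4EBP3 overlaps ANKHD1, and the treatment of overlapping genes in the authors' counting is not given, so its count carries that uncertainty.

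Ratios between related genes within a library, on the FPKM scale, showed how the 4E-BP transcripts shifted against each other. EIF4EBP3 over EIF4EBP1 stayed nearly constant, at 1.18, 1.32 and 1.12 in high IMF against 1.22, 1.31 and 1.31 in low IMF muscle, although each gene varied several-fold between libraries. EIF4EBP2 over EIF4EBP1 was 0.986, 0.525 and 0.402 in high IMF against 0.182, 0.325 and 0.361 in low IMF muscle. EIF4E over EIF4EBP1 was 0.659, 0.554 and 0.424 in high IMF against 0.184, 0.345 and 0.349 in low IMF muscle. For both of these ratios every high IMF library was above every low IMF library. These ratios were picked after the values were seen, so they are descriptions and carry no test.

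**Figure D3:**
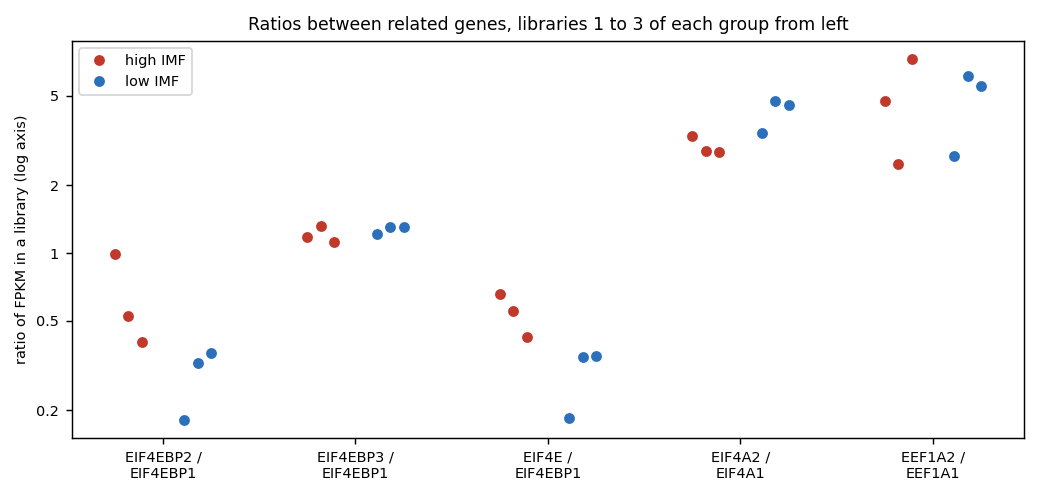
Ratio of FPKM between related genes within each library (log axis), with replicates 1 to 3 of each group from left to right. EIF4EBP2 over EIF4EBP1 and EIF4E over EIF4EBP1 are higher in every high than in every low IMF library, EIF4A2 over EIF4A1 is lower, and EIF4EBP3 over EIF4EBP1 and EEF1A2 over EEF1A1 overlap.

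All 9 genes grouped here as elongation factors had a log2 fold below 0, with a median of -0.20. Only 1 of them had separate groups, and the count below 0 was 6 of 9 with library size only. The group includes EEF1E1, which carries the name but is a part of the multisynthetase complex. EEF1E1 had 4.11, 3.88 and 3.82 CPM in the high and 6.77, 3.32 and 3.72 CPM in the low IMF libraries, with overlap. EEF1G had 1247, 850 and 1049 CPM in the high and 1651, 1328 and 1300 CPM in the low IMF libraries. The groups did not overlap, and the log2 fold was -0.44 ± 0.25 (standard error) with an adjusted p of 0.797 in edgeR. The other subunits of the exchange factor, EEF1B2 and EEF1D, had 140.4 ± 15.5 CPM in high and 151.5 ± 2.90 CPM in low IMF muscle, and 346 ± 101 CPM and 397 ± 52.7 CPM (SD, n = 3 each), with overlap. EEF2, the translocase, had 2087 ± 322 CPM in high and 2141 ± 47.1 CPM in low IMF muscle (SD, n = 3 each). Its kinase EEF2K, which slows elongation, had 140, 261 and 297 CPM in the high and 192, 302 and 307 CPM in the low IMF libraries, lowest in replicate 1 of each group.

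The eEF1A paralogs, which differ in where they are used rather than in what they do, varied in opposite ways between libraries. EEF1A2 had 2536, 1926 and 2795 CPM in the high and 2017, 3578 and 3335 CPM in the low IMF libraries. EEF1A1 had 585, 846 and 420 CPM in the high and 819, 642 and 663 CPM in the low IMF libraries. The libraries lowest in EEF1A2, high IMF replicate 2 and low IMF replicate 1, were the highest in EEF1A1. EEF1A2 over EEF1A1 on the FPKM scale was 4.76, 2.5 and 7.31 in high IMF against 2.70, 6.11 and 5.52 in low IMF muscle, so the ratio differed between libraries while the groups overlapped. The log2 folds of EEF1A2 and EEF1A1 were -0.30 ± 0.32 and -0.20 ± 0.29 (standard error), with adjusted p-values of 0.919 and 0.940 in edgeR. Mammalian genomes carry many processed copies of EEF1A1, so its count is uncertain where reads could be split between copies.

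The 17 cytosolic synthetases were closely level between the groups. Their log2 folds ran from -0.20 for KARS to 0.27 for TARS with a median of -0.08 (0.07 with library size only); 16 of the 17 were under 0.25 in absolute size and 0 had separate groups. KARS, the lysyl enzyme, which also serves the mitochondrion from the same gene, was the most abundant at 119.7 FPKM, above WARS (36.0), AARS (33.6) and QARS (32.9). KARS had 346, 372 and 418 CPM in the high and 398, 465 and 442 CPM in the low IMF libraries, an overlap through high IMF replicate 3, with an adjusted p of 0.902 in edgeR. TARS, the threonyl enzyme, had 25.7, 27.8 and 26.9 CPM in the high and 26.8, 19.6 and 20.3 CPM in the low IMF libraries. Low IMF replicate 1 lay within the high IMF range of TARS, and the adjusted p was 0.844.

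Several cytosolic synthetases were among the steadiest members. The spread within groups, as the SD of log2 CPM, was 0.061 for both AARS and SARS, where the median was 0.20 over the 90 members and 0.30 over all genes tested. AARS, the alanyl enzyme, had 113.8 ± 4.75 CPM in high and 120.2 ± 5.20 CPM in low IMF muscle, and SARS, the seryl enzyme, 56.5 ± 1.21 CPM and 59.7 ± 3.39 CPM (SD, n = 3 each). IARS, the isoleucyl enzyme, had 54.8 ± 0.555 CPM in high and 51.2 ± 5.69 CPM in low IMF muscle, and YARS, the tyrosyl enzyme, 19.5 ± 1.73 CPM and 19.9 ± 1.18 CPM (SD, n = 3 each). GARS, the glycyl enzyme, varied more between libraries, with 36.1, 44.9 and 72.8 CPM in the high and 40.2, 70.1 and 65.9 CPM in the low IMF libraries. WARS, the tryptophanyl enzyme known in humans as interferon-inducible, was highest in low IMF replicate 1 (135 CPM) and high IMF replicate 2 (122 CPM) and lay between 80.1 and 98.1 CPM in the other libraries.

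The mitochondrial synthetases had a median log2 fold of -0.12, with SARS2 at the lower end (-0.43), and 11 of the 17 were under 0.25 in absolute size. Of the 17, 10 had a log2 fold below 0, and 8 with library size only. The cysteinyl enzyme CARS2 had 20.5, 12.4 and 18.7 CPM in the high and 20.6, 24.2 and 23.6 CPM in the low IMF libraries. High IMF replicate 1 and low IMF replicate 1 of CARS2 were nearly equal, though the groups did not overlap, and the log2 fold was -0.41 ± 0.22 (standard error) with an adjusted p of 0.767. EARS2, the glutamyl enzyme, had 18.5, 19.2 and 18.5 CPM in the high and 23.8, 20.8 and 20.8 CPM in the low IMF libraries, again separate, with a log2 fold of -0.22 ± 0.14 and an adjusted p of 0.851.

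SARS2, the mitochondrial seryl enzyme, had the lowest fold of the group but overlapped, with 10.6, 9.46 and 14.8 CPM in the high and 20.1, 14.3 and 12.4 CPM in the low IMF libraries. Its log2 fold of -0.43 ± 0.26 (standard error) had an adjusted p of 0.828. MARS2 and PARS2, the methionyl and prolyl enzymes, overlapped between the groups, with log2 folds of -0.32 and 0.26. The most abundant of all 17 were FARS2 (13.7 FPKM), IARS2 (13.1 FPKM) and TARS2 (10.9 FPKM), the enzymes of phenylalanine, isoleucine and threonine.

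**Figure D4:**
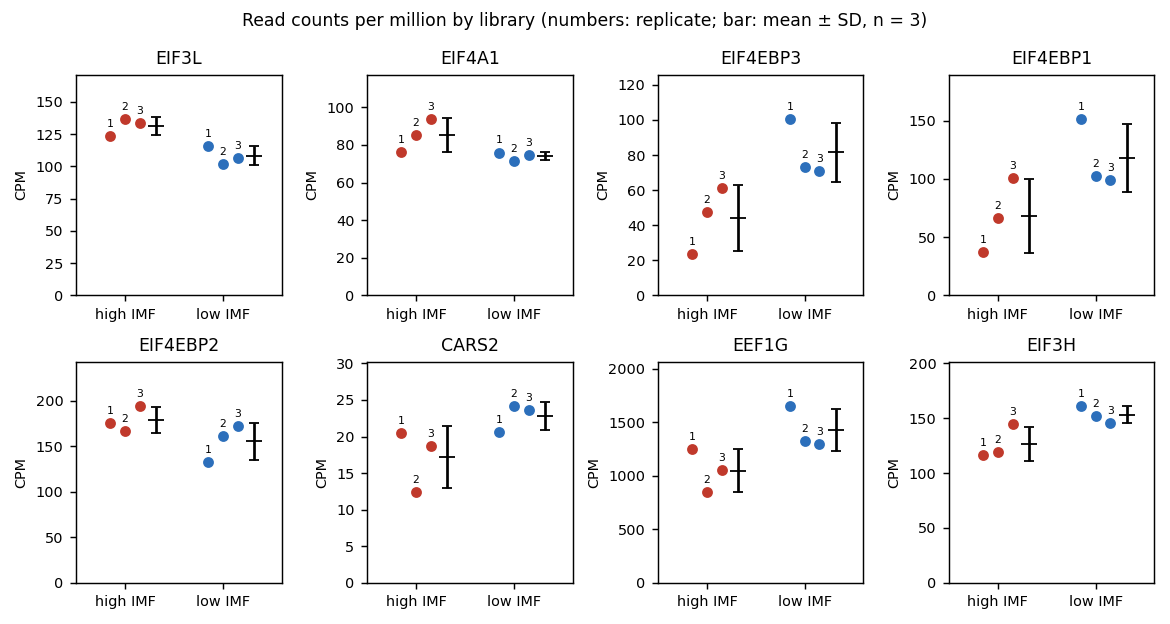
CPM of 8 members in each library (points, numbered by replicate) with the mean and SD of each group (bars, n = 3), high IMF left and low IMF right. EIF3L (124 to 137 against 102 to 116 CPM) and EIF4A1 are higher in every high IMF library, EIF4EBP3, CARS2, EEF1G and EIF3H are lower, and EIF4EBP1 and EIF4EBP2 overlap.

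Libraries of the same group stood apart from each other in the members' levels. The level of the 90 genes in a library, taken as the median over genes of log2 CPM after subtracting the mean of that gene, was -0.17, -0.05 and 0.10 for replicates 1, 2 and 3 of high IMF against -0.0060, 0.052 and 0.053 for low IMF muscle. The lowest value fell in high IMF replicate 1 for 37 of the 90 members, or 41.1%, where it did so for 19.7% of all genes tested. High IMF replicate 3 was the highest for 25 members, or 27.8%, against 22.3% of all genes. By this median the muscle fibre markers were likewise lowest in high IMF replicate 1 and highest in high IMF replicate 3. Their levels were -0.57, -0.10 and 0.51 in high IMF against -0.09, 0.39 and 0.20 in low IMF muscle. The list was split: CKM, TNNT3, TNNI2, MYLPF, NEB and PYGM were lowest in high IMF replicate 1, while ACTA1, MB, TTN and DES were not. Fibroblast markers were at 1.08, 0.96 and -1.43 in high IMF against -0.86, -0.06 and 0.16 in low IMF muscle, and myeloid markers at 1.11, 0.49 and -0.32 against -0.46, -0.41 and -0.26. Adipocyte markers were at 0.74, 2.56 and -0.90 in high IMF against -1.98, 0.11 and -0.13 in low IMF muscle, and 7 of 9 tested had a log2 fold above 0, with a median of 1.93. All 10 fibroblast markers had a log2 fold above 0, with a median of 0.71, as had 8 of 9 myeloid markers, with a median of 1.08. Endothelial markers were at 0.15, -0.16 and -0.68 in high IMF against 0.40, 0.20 and 0.16 in low IMF muscle. Of these markers 9 of 10 had a log2 fold below 0 and 4 were separate, all lower, with a median of -0.47. Over all genes tested 48.8% had a log2 fold below 0 and 6.1% were separate in the lower direction. Smooth muscle markers were at -0.51, 0.019 and -0.53 in high IMF against -0.37, 0.86 and 0.57 in low IMF muscle, with 6 of 6 below 0 and a median of -0.76. Lymphocyte markers were above 0 in 7 of 8 tested, with a median of 1.53. The part of these cells in the members' levels was not tested.

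**Figure D5:**
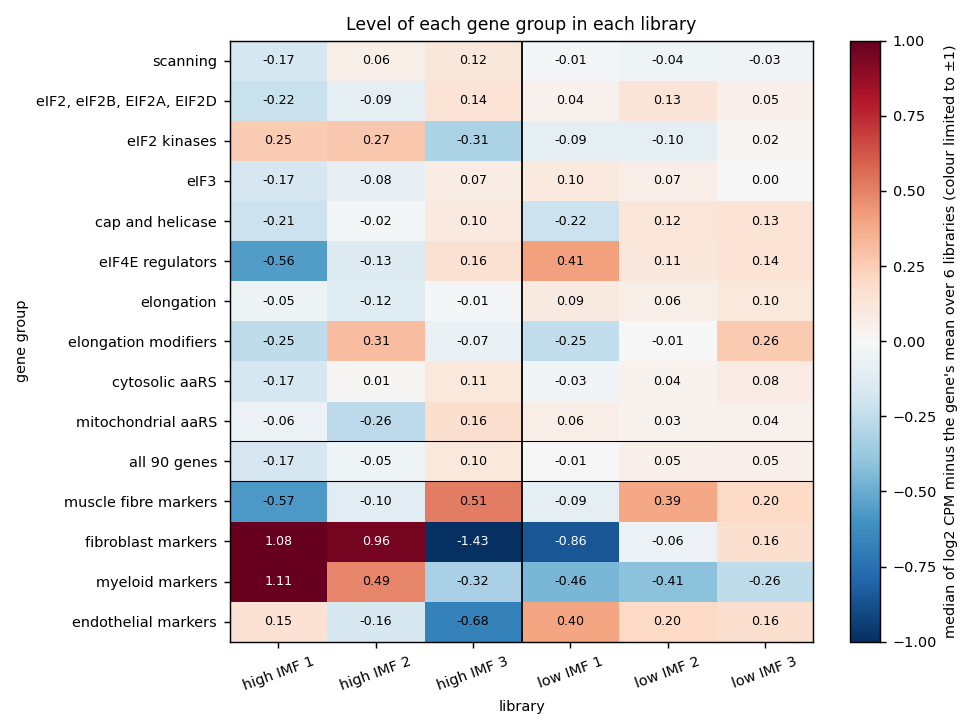
Level of each role group and of marker lists in each library, as the median over genes of centred log2 CPM, with high IMF left and low IMF right of the line; colours end at 1 and -1. The 90 genes and the muscle fibre markers are lowest in high IMF replicate 1 and highest in high IMF replicate 3, and the eIF2 kinases are highest in high IMF replicates 1 and 2 and lowest in high IMF replicate 3.

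Among genes that work with the members, other synthetase and scaffold genes and mitochondrial translation factors had log2 folds mostly below 0 under the main scaling. No gene of these lists passed the test after adjustment. Of the 6 other synthetase and scaffold genes, 4 were below 0, while EPRS (0.15) and TARSL2 (0.15) were above 0. Of 6 other synthetase and scaffold genes, 0 reached an unadjusted p under 0.05 in the higher direction and 1 in the lower, AIMP1, a scaffold of the multisynthetase complex, with 34.6, 31.1 and 38.1 CPM in the high and 41.3, 44.7 and 46.8 CPM in the low IMF libraries (edgeR adjusted p = 0.673). AIMP1 and FARSB, a subunit of the phenylalanyl enzyme (30.2 ± 5.19 CPM in high and 35.8 ± 1.71 CPM in low IMF muscle; SD, n = 3 each), were the 2 of the 6 with separate groups, both lower, where 6.1% of all genes tested were separate in that direction. AIMP2, another scaffold of that complex, had 23.3 ± 5.84 CPM in high and 32.7 ± 5.65 CPM in low IMF muscle (SD, n = 3 each) with overlap; in the RefSeq table it overlaps EIF2AK1, so reads may be shared. Of 11 mitochondrial translation factors, 9 had a log2 fold below 0 and 3 had separate groups, all lower, against the same 6.1% of all genes. With library size only the counts below 0 were 6 of these 11 and 4 of the 6 synthetase and scaffold genes. GFM2, which recycles mitochondrial ribosomes, had 10.7 ± 0.624 CPM in high and 14 ± 0.966 CPM in low IMF muscle, and the mitochondrial elongation factor GFM1 had 95.1 ± 12.9 CPM and 121 ± 14 CPM (SD, n = 3 each). Their adjusted p-values in edgeR were 0.679 and 0.752. Of 11 release, recycling and poly(A)-binding factors, 0 reached an unadjusted p under 0.05 and 0 had separate groups.

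Upstream, the mTORC1 list had 27 genes tested. In edgeR 2 of them were higher and 1 was lower when p was left unadjusted (under 0.05), against 4.53% and 2.74% of all genes tested. After adjustment edgeR called 0 and DESeq2 2, against 0% and 1.16% of all genes given an adjusted p. The median log2 fold of the list was -0.04. The genes of this list that differed most were the sestrins, which restrain mTORC1 when amino acids are short. SESN1 had 108, 128 and 101 CPM in the high and 272, 219 and 209 CPM in the low IMF libraries, without overlap (edgeR adjusted p = 0.431; DESeq2 adjusted p = 0.00065). SESN2 had 6.25, 7.75 and 6.66 CPM in the high and 2.67, 2.55 and 2.97 CPM in the low IMF libraries, the opposite direction (adjusted p = 0.374 in edgeR and 0.000231 in DESeq2). SESN3 was higher on average but overlapped, at 23.2 ± 9.38 CPM in high and 13.5 ± 2.09 CPM in low IMF muscle (SD, n = 3 each). The kinase gene MTOR itself, named after its values were seen, overlapped with 79.0 ± 4.15 CPM in high and 84.1 ± 9.65 CPM in low IMF muscle (SD, n = 3 each).

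Genes of ATF4, the transcription factor translated when eIF2 is phosphorylated, and of its response lay further from 0 than the members did, without a test of that difference. The list was written with earlier results of these data known. Of 28 tested, 21 had a log2 fold above 0 with a median of 0.38, where 48.8% of all genes were below 0. Separate groups were seen for 7 in the higher and 1 in the lower direction, against 6.86% and 6.1% of all genes. With an unadjusted p under 0.05 edgeR had 5 higher and 2 lower, against 4.53% and 2.74%. After adjustment edgeR called 0 and DESeq2 called 3 (SLC1A5, SESN2 and STC2), against 0% and 1.16% of all genes given an adjusted p. SESN2 is on both this list and the mTORC1 list, so the counts of the lists are not independent. The amino acid transporters SLC1A5 and SLC38A2 had 7.23 ± 2.15 CPM in high and 1.70 ± 0.335 CPM in low IMF muscle, and 151 ± 36.0 CPM and 91.0 ± 10.7 CPM (SD, n = 3 each). STC2, which encodes a secreted glycoprotein, was on the lower side, with 2.83 ± 0.393 CPM in high and 6.78 ± 2.09 CPM in low IMF muscle (SD, n = 3 each). ATF4 itself, named after its values were seen, had 374, 338 and 472 CPM in the high and 332, 320 and 279 CPM in the low IMF libraries, separate by a small gap between high IMF replicate 2 and low IMF replicate 1, with an adjusted p of 0.814. Many cytosolic synthetase genes are known ATF4 targets in mouse and human cells. The median log2 fold of all cytosolic synthetases here was -0.08, beside 0.38 for the ATF4 list. With library size only these medians were 0.07 and 0.54. The part of ATF4 in either median was not tested.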

How the data were processed

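Gene-level read counts of 6 libraries were analysed. The counts deposited by the authors were whole numbers; HISAT2 and the mouse build mm9 are listed in the submitters' processing notes, while the gene names in the table are those of donkey, so the build is uncertain and no coordinates or sequences are given. No label or header names the counter, its strand setting or its treatment of shared reads. FPKM values, as deposited by the authors, were used only for levels between genes and for ratios within a library, and they rest on the authors' gene lengths. The deposited ratio (fold change), log2 fold and p-values, per the file headers, are the authors' own comparison of high over low IMF. Counts in the per-sample files equalled the series table (0 cells differed).

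Counts were fitted with edgeR 4.0.16 (R 4.3.3) after TMM normalisation and filterByExpr, which kept 15933 genes holding 99.96% of reads, and p-values were adjusted by Benjamini-Hochberg over all of them. The standard error was taken from the log2 fold and the F statistic. CPM is relative to TMM-adjusted library sizes, and 0.5 CPM was added before logs for library levels. The depth of 39052998 to 47494157 reads sets the precision, and a count of 0 allows up to 3 reads (95% confidence, counting error only). The code was tested on simulated data. Alternatives were DESeq2 1.42.0 (Wald test, and its size factors in edgeR), limma-voom (limma 3.58.1), library size only, no filter, a stricter filter, a replicate block, low IMF replicates 2 and 3 summed, and each library left out.

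Members, role groups, gene lists and the rule for named genes (unadjusted p under 0.05, separate groups, highest level, ends of each role group and a fixed set) were chosen with earlier results of these data known. A gene that enters the counts over the members is not reported here. Of the 90 symbols, 72 were found in the supplied RefSeq table of donkey genes, which is of another assembly, and 17 more under their current symbol ending in 1, 89 in all; 18 of these overlap a protein-coding gene there, EARS2, SARS2, EIF4A2, EIF4A3 and EIF2B2 among them, so their counts may hold reads of the neighbour.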

Additional observations from a re-analysis of the deposited data

How the results depend on the processing

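The number of genes called over the whole table at an adjusted p under 0.05 was 0 in edgeR and 194 in the DESeq2 Wald test, and it ran from 0 to 3 as each library was left out; the cause was not tested. Members called stayed at 0 under all 14 alternatives. At an unadjusted p under 0.05 edgeR had 1 higher and 1 lower member, and leaving out each library gave 1 to 3 higher and 0 to 8 lower. The lower count was 2 with no low-count filter, 2 in the DESeq2 Wald test and 0 with the replicate block. The share of all genes at that level was not taken for these alternatives. With library size only, the median log2 fold was 0.062 for the members, 0.070 for the cytosolic synthetases and 0.047 for the translation factors, in place of -0.079, -0.079 and -0.068, and over all genes tested this scaling gave a median of 0.15 in place of 0.0085. Of 475 values for 34 named genes, 471 kept their direction and their side of the threshold, and EIF4E1B gave none under the stricter filter. With so few genes called in edgeR, keeping the side of the threshold says little beyond direction. The named genes were also chosen partly by their p-value, separation or fold. SESN1 and SESN2 passed the threshold in the DESeq2 Wald test. The log2 fold of EIF1 ran from -0.36 to 0.00061 as libraries were left out, positive without high IMF replicate 1, and that of EEF1A1 became 0.0098 without high IMF replicate 3 and was -0.51 without high IMF replicate 2. The replicate numbers are shared by the groups, but nothing in the labels pairs the libraries: deviations of same-numbered libraries correlated at 0.22, 0.20 and 0.036, high IMF replicate 2 correlated best with low IMF replicate 3, and the replicate block left the members called at 0. Depth limits EIF4E1B and EEF2KMT most, with at most 60 and 51 reads in a library.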

Other observations

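EIF4E1B, an oocyte form of the cap-binding protein, was listed with 60, 16 and 14 reads in the high and 2, 17 and 13 reads in the low IMF libraries. Its log2 fold of 1.40 ± 0.90 (standard error) therefore rested on high IMF replicate 1 and low IMF replicate 1. The methyltransferase gene EEF2KMT held 34, 51 and 9 reads in the high and 20, 13 and 27 reads in the low IMF libraries, with overlap.

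A second row, listed under a LOC number that the RefSeq table names EIF5B, was not a member by the rule. It had 24.7 ± 1.29 CPM in high and 25.7 ± 4.46 CPM in low IMF muscle, where the row named EIF5B had 20.8 ± 4.37 CPM and 20.4 ± 2.72 CPM (SD, n = 3 each). EIF5B joins the ribosomal subunits; how its reads were divided between the rows was not tested, and neither row differed between the groups by more than its spread.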
